A study of Mus musculus with 18 samples.

Results

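Antigen presentation genes let a cell show peptides to T cells. The 10 genes described here are H2-Aa, H2-Ab1, H2-Eb1, Cd74, Ciita, H2-D1, H2-K1, B2m, Tap1 and Psmb8. They were chosen by name for their roles in the class I and class II pathways, with earlier results of these data known. Their rows were found by Ensembl identifier among the 54281 genes of the deposited count table. All 10 were present in the table as 1 row each and passed the count filter with which 15210 genes were tested. RNA came from the whole descending aorta, intima, media and adventitia in 1 extract, of 18 male C57BL/6 mice in 3 groups of 6. HGPS mice (genotype LMNAG609G in the labels) carry a knock-in at the endogenous Lmna gene, so that progerin, a truncated Lamin A, can be made in every cell type that expresses Lmna. They were 64 to 75 d old and are a model of Hutchinson-Gilford progeria. The WT mice of the 2-mo group were 62 d old, apart from replicate 6 at 95 d, and the WT mice of the 24-mo group were 609 to 762 d old. No group had received a treatment by the labels. Total RNA depleted of ribosomal RNA was sequenced. The expression values are CPM, the counts of a gene relative to the total of its mouse, scaled to a common library size by the TMM method, and a log2 fold change is the difference of 2 groups on the log2 scale from edgeR's quasi-likelihood fit with its standard error (SE).

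Class II molecules are pairs of an alpha and a beta chain that present peptides from engulfed material to CD4 T cells, and in the artery wall they are best known from macrophages and dendritic cells of the adventitia. H2-Aa and H2-Ab1 encode the alpha and beta chains of the A molecule and H2-Eb1 the beta chain of the E molecule, for which C57BL/6 mice have no functional alpha chain. Cd74 is the invariant chain that fills the groove until a peptide is loaded, and Ciita is the coactivator that turns on the whole class II set. Class I molecules are made by nearly all nucleated cells and present peptides from the cytosol to CD8 T cells. H2-D1 and H2-K1 are their heavy chains, B2m is the shared light chain, Tap1 is a subunit of the peptide transporter of the endoplasmic reticulum, and Psmb8 is a catalytic subunit of the immunoproteasome. Interferon-gamma is the best known inducer of both pathways. On GRCm38 (GENCODE M21 gene models), 7 of the 10 genes lie in the major histocompatibility complex on chromosome 17. These are H2-K1 (chr17:33996017-34000347), Tap1 (chr17:34187553-34197225), Psmb8 (chr17:34197721-34201454), H2-Ab1 (chr17:34257689-34269419), H2-Aa (chr17:34282744-34287823), H2-Eb1 (chr17:34305867-34316674) and H2-D1 (chr17:35262730-35267499). B2m is at chr2:122147686-122153083, Ciita at chr16:10480059-10528418 and Cd74 at chr18:60803848-60812652.

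The totals of the count table ranged from 12413229 to 30844775 per mouse, and the highest were in HGPS (median 22752394, against 18031579 in 2-mo WT and 17964166 in 24-mo WT). In each of the 45 pairs of same-group mice the counts differed by more than sampling noise (ratio of chi-square to its degrees of freedom 7.77 to 93.8), so every mouse is 1 replicate. The tissue label fitted its markers: the 6 smooth muscle markers summed to 19260 to 37290 CPM in every mouse. In whole tissue, fewer cells of a type and less RNA per cell cannot be told apart, and this holds for each of the values below. One mouse stood apart from its group in the class II genes, replicate 6 of 24-mo WT. Results of the 10 genes that rest on it are given with and without it where both were computed.

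The stretches of DNA before H2-Aa, H2-Eb1, B2m and the class I heavy chains share a short element, and 4 are shown so that the element can be compared between the classes. RefSeq promoter windows of GRCm38.p6 (250 bases before to 50 after the start of transcription) were at hand for 7 of the 10 genes, those other than H2-Ab1, Cd74 and Ciita. Each line gives 100 bases before to 20 after the start, 5′ to 3′ on the strand of the gene. Capitals mark a Y box (CCAAT, or ATTGG on the other strand, the site of the factor NF-Y) and an X2 box (TGACGNNA on either strand, a site of the CREB family).

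H2-Aa (minus strand, chr17:34287804-34287923): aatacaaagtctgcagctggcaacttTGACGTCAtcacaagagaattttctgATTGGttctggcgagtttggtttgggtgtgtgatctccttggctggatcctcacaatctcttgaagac

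H2-Eb1 (plus strand, chr17:34305767-34305886): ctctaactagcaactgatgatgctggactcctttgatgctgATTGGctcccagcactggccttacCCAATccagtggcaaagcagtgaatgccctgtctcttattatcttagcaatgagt

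H2-D1 (plus strand, chr17:35262994-35263113): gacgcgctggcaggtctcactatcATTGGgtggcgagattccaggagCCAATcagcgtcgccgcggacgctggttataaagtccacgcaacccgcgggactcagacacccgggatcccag

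B2m (plus strand, chr2:122147587-122147706): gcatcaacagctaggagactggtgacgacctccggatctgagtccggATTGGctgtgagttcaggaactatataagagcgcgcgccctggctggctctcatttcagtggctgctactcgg

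The Y box began 48 bases before the start in H2-Aa, 59 and 35 bases before it in H2-Eb1, 76 and 53 bases before it in H2-D1 and 53 bases before it in B2m. It was also found in both windows of H2-K1 and, at 222 bases before the start, in Tap1. CCAAT is short, and 37.4% of all 32851 promoter windows held it. The X2 box lay 74 bases before the start of H2-Aa, in letters that match on both strands, and 86 bases before that of Tap1, and 6.61% of all windows held it. An interferon-stimulated element (GAAANNGAA, in 8.56% of windows) was found 139 bases before the start of B2m and a gamma-activated site (TTCNNNGAA, in 8.3% of windows) 97 bases before that of Psmb8, searched on both strands. These are matches of letters and say nothing about binding in the aorta.

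Per kilobase of the principal transcript, the class I genes were the more abundant in the young wall. In 2-mo WT the mean level was 470 CPM per kb for B2m, 137 for H2-D1 and 103 for H2-K1. The class II chains stood lower, at 58.8 CPM per kb for Cd74, 38.8 for H2-Aa, 20.9 for H2-Ab1 and 14.6 for H2-Eb1. Psmb8 (6.81) and Tap1 (4.55) were lower still, and the coactivator Ciita was the lowest at 0.334 CPM per kb. In HGPS the distance between the classes was smaller for Cd74, which had a mean of 137 CPM per kb beside 123 for H2-K1.

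The first question was how the progeria genotype at 2 mo differs from WT of that age. All 5 class II genes rose in HGPS, by 2.32- to 2.90-fold, at an adjusted p under 0.05, and in each of them every HGPS mouse was above every 2-mo WT mouse. Tested against a change of 1.5-fold instead of no change (edgeR's glmTreat), H2-Eb1 kept an adjusted p under 0.05 (0.043), and H2-Ab1 (0.083), Ciita (0.0912), Cd74 (0.123) and H2-Aa (0.128) did not. H2-Aa had 63.8 to 185 CPM in HGPS (median 88.7) and 31.4 to 58.4 CPM in 2-mo WT (median 41.5), a log2 fold change of 1.24 (SE 0.34, adjusted p = 0.00681). H2-Ab1 had 42.5 to 133 CPM in HGPS (median 58.7) and 17.2 to 34.4 CPM in 2-mo WT (median 26.4), a log2 fold change of 1.44 (SE 0.38, adjusted p = 0.00522). The mice of the 2 groups did not overlap in either chain of the A molecule, and the HGPS mice spread over 2.90-fold for H2-Aa and 3.12-fold for H2-Ab1.

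H2-Eb1 had the largest change of the 10 genes on the log2 scale. Its level was 40.4 to 138 CPM in HGPS (median 59.8) and 17.9 to 30.1 CPM in 2-mo WT (median 23.5), a log2 fold change of 1.53 (SE 0.36, adjusted p = 0.00212). Cd74, the invariant chain, had 124 to 342 CPM in HGPS (median 170) and 56.3 to 102 CPM in 2-mo WT (median 85.6), a log2 fold change of 1.22 (SE 0.33, adjusted p = 0.00575). The mRNA of the coactivator moved with that of the chains it controls. Ciita had 2.94 to 9.46 CPM in HGPS (median 4.54) and 1.61 to 2.57 CPM in 2-mo WT (median 1.97), a log2 fold change of 1.36 (SE 0.36, adjusted p = 0.00529). It is the least abundant of the 10, with 35 counts on average in a mouse of 2-mo WT and 115 in one of HGPS. HGPS replicate 6 was the highest of its group in all 5 class II genes, and without it their log2 fold changes were 0.97 for Cd74, 1.00 for H2-Aa, 1.11 for Ciita, 1.14 for H2-Ab1 and 1.23 for H2-Eb1 (adjusted p = 0.00739 to 0.0238).

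**Figure D1:**
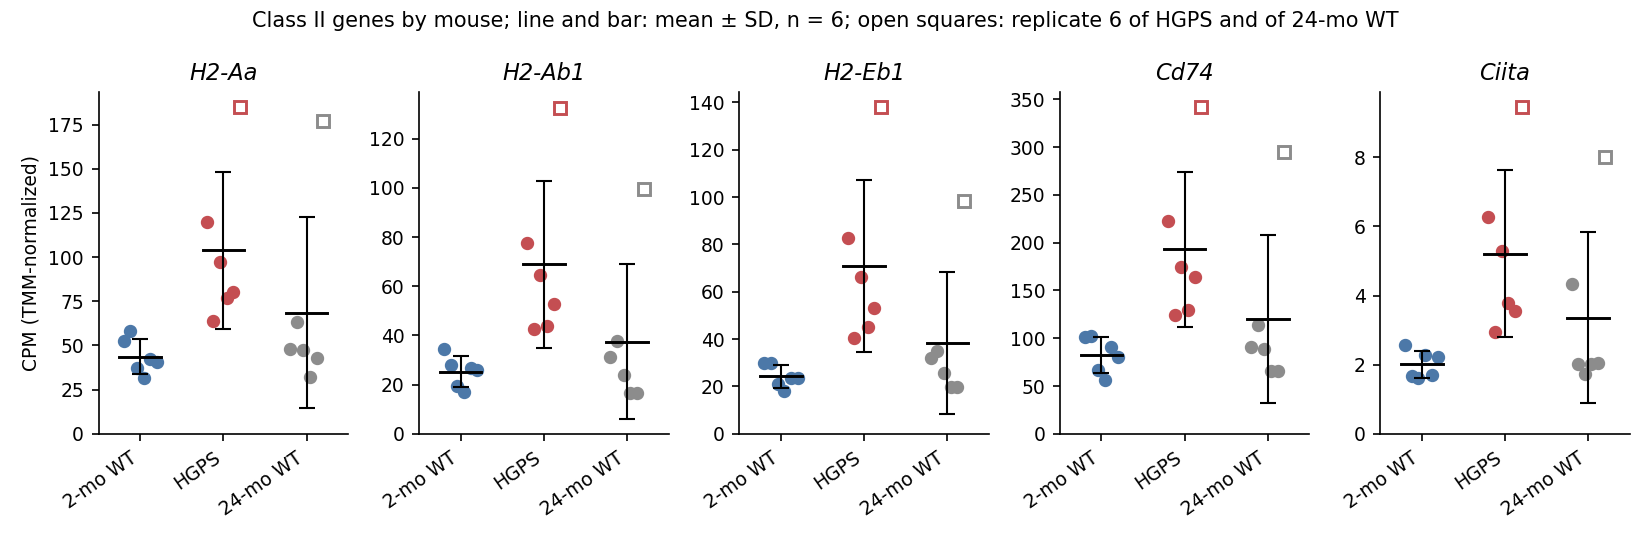
CPM of the 5 class II genes (vertical axis, from 0) in each of the 6 mice of 2-mo WT, HGPS and 24-mo WT (horizontal axis), with the mean and SD of each group in black. The HGPS mice lay above all 2-mo WT mice in each panel, and replicate 6 of 24-mo WT (grey open square, 177 CPM for H2-Aa) lay apart from the rest of its group.

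The class I genes differed less. B2m rose, from 369 to 426 CPM in 2-mo WT (median 408) to 432 to 525 CPM in HGPS (median 498), with a log2 fold change of 0.27 (SE 0.10, adjusted p = 0.031). H2-D1 had 271 to 438 CPM in HGPS (median 369) and 229 to 325 CPM in 2-mo WT (median 294), a log2 fold change of 0.29 that missed the threshold (SE 0.12, adjusted p = 0.0612). H2-K1 had 153 to 272 CPM in HGPS (median 192) and 129 to 181 CPM in 2-mo WT (median 174), a log2 fold change of 0.25 (SE 0.16, adjusted p = 0.222). The groups overlapped in both heavy chains and not in B2m, whose SD was 20.1 CPM in 2-mo WT around a mean of 404 and 42.8 CPM in HGPS around a mean of 486.

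The heavy chains are members of a family of near-identical genes between which salmon divides the reads, so the split between H2-K1, H2-D1 and the H2-Q genes is uncertain. Of the counts of these 10 family members, H2-D1 took 57.6% and H2-K1 34%. Summed over the family, the log2 fold change of HGPS against 2-mo WT was 0.28 (SE 0.15, adjusted p = 0.131), so that the sum missed the threshold as H2-K1 and H2-D1 did.

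Psmb8, the immunoproteasome subunit, rose in HGPS. Its level was 14.2 to 17.7 CPM in HGPS (median 16.2) and 8.95 to 13.4 CPM in 2-mo WT (median 10.9), with a log2 fold change of 0.52 (SE 0.18, adjusted p = 0.0282) and no overlap of the groups. Tap1, its close neighbour on the chromosome, had 13.4 to 21.3 CPM in HGPS (median 18.8) and 11.5 to 16.0 CPM in 2-mo WT (median 13.2), a log2 fold change of 0.41 (SE 0.17, adjusted p = 0.0625).

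**Figure D2:**
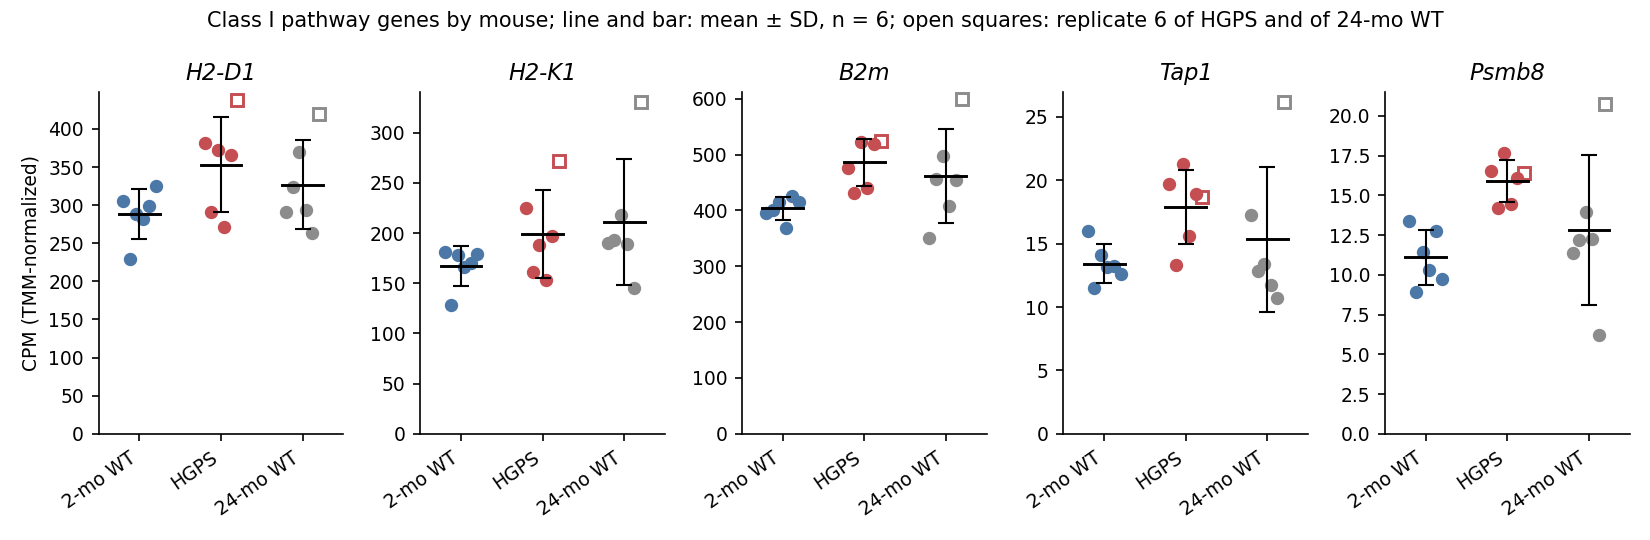
CPM of the 5 class I pathway genes (vertical axis, from 0) in each of the 6 mice of 2-mo WT, HGPS and 24-mo WT (horizontal axis), with the mean and SD of each group in black. B2m and Psmb8 show no overlap of HGPS with 2-mo WT, while H2-D1, H2-K1 and Tap1 do, and replicate 6 of 24-mo WT is the highest of its group in all 5 panels.

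The calls of the class I genes depended on single mice. The adjusted p of B2m rose above 0.05 without HGPS replicate 3 (0.0622), 5 (0.0583) or 6 (0.0661) and without 2-mo WT replicate 2 (0.0521) or 4 (0.0694). That of Psmb8 did so without HGPS replicate 3 (0.0551) and without 2-mo WT replicate 2 (0.0645), 4 (0.0532) or the 95-d-old replicate 6 (0.0581). In turn H2-D1 passed without HGPS replicate 2 (0.0354) or 4 (0.0204) or 24-mo WT replicate 6 (0.0479), and Tap1 without HGPS replicate 2 (0.0345), 2-mo WT replicate 1 (0.0473) or 24-mo WT replicate 6 (0.0122). The 5 class II genes kept an adjusted p under 0.05 whichever mouse was left out.

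Counted over the 10 genes, 7 rose in HGPS at an adjusted p under 0.05 and 0 fell, beside 22% of all tested genes that rose and 21.2% that fell. In the same 7 genes the lowest HGPS mouse was above the highest 2-mo WT mouse, beside 11% of all tested genes. The median log2 fold change was 0.87 over the 10 genes and 0.0026 over all tested genes. The 10 genes were chosen with earlier results of these data known, and the class II genes varied together across mice. These counts are descriptions and not a test of the set. The study used stricter thresholds, an adjusted p under 0.001 together with a change of at least 1.5-fold. At these edgeR called 0 of the 10, beside 5.27% of all genes called higher, and DESeq2 called 2 of them, H2-Eb1 and Ciita, beside 7.52% of all genes. An unadjusted p under 0.05 was reached upward by 9 of the 10 in edgeR, beside 25.6% of all genes.

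That count of 0 changed with a mouse outside the comparison. All 3 groups share 1 estimate of the spread, and without replicate 6 of 24-mo WT all 5 class II genes passed the study's thresholds in HGPS against 2-mo WT (adjusted p = 0.000125 for H2-Eb1, 0.000279 for H2-Aa, 0.000325 for Cd74, 0.000415 for H2-Ab1 and 0.000937 for Ciita), beside 5.19% of all genes called higher in that fit. Their log2 fold changes moved by 0.01 at most. With the 2 groups fitted alone, 4 of the 10 passed, the class II genes other than Ciita (adjusted p = 0.00107), beside 5.08% of all genes.

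The second question was what age changes in WT mice. None of the 10 genes passed an adjusted p under 0.05 between 24-mo and 2-mo WT in edgeR (adjusted p = 0.205 to 0.554), beside 6.29% of all genes that rose and 5.38% that fell, and 0 reached an unadjusted p under 0.05, beside 13.2% of all genes that did so upward. DESeq2 called 0 as well. At the study's thresholds the count was 0, beside 1.28% of all genes called higher, and in 0 of the 10 genes were the 24-mo mice all above the 2-mo mice, beside 3.2% of all genes. The median log2 fold change was 0.43 over the 10 genes, 0.0956 over them without replicate 6 of 24-mo WT, and 0.0083 over all genes.

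In the class II genes, replicate 6 of 24-mo WT was above the other 5 mice of its group. H2-Aa had 32.4 to 63.5 CPM in replicates 1 to 5, with a mean of 46.8 CPM ± 11.2 (SD, n = 5), and 177 CPM in replicate 6. H2-Ab1 had 25.1 CPM ± 9.25 in the 5 and 99.6 CPM in replicate 6. H2-Eb1 had 26.4 CPM ± 6.94 in the 5 and 98.2 CPM in replicate 6. For Cd74 the values were 85.1 CPM ± 19.9 and 295 CPM, and for Ciita 2.43 CPM ± 1.08 and 8.01 CPM. In Ciita another 24-mo mouse, with 4.34 CPM, was also above all 2-mo WT mice. This mouse was below the highest HGPS mouse, which had 185 CPM for H2-Aa, 133 for H2-Ab1 and 342 for Cd74.

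With all mice the log2 fold changes of 24-mo against 2-mo WT were 0.53 for Cd74, 0.56 for H2-Ab1, 0.64 for H2-Aa, 0.65 for H2-Eb1 and 0.73 for Ciita. Without replicate 6 they were 0.04 (SE 0.23) for Cd74, -0.02 (SE 0.29) for H2-Ab1, 0.09 (SE 0.23) for H2-Aa, 0.11 (SE 0.27) for H2-Eb1 and 0.27 (SE 0.31) for Ciita, with adjusted p = 0.649 to 0.975. The class I genes had log2 fold changes of 0.18 for H2-D1, 0.34 for H2-K1, 0.19 for B2m, 0.19 for Tap1 and 0.20 for Psmb8. Without replicate 6 these were 0.10, 0.16, 0.10, -0.03 and 0.01. Replicate 6 was the highest 24-mo mouse in all 10 genes, with 331 CPM for H2-K1 where the other 5 had at most 218, 600 CPM for B2m (at most 499 in the others) and 20.8 CPM for Psmb8 (at most 14.0).

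**Figure D3:**
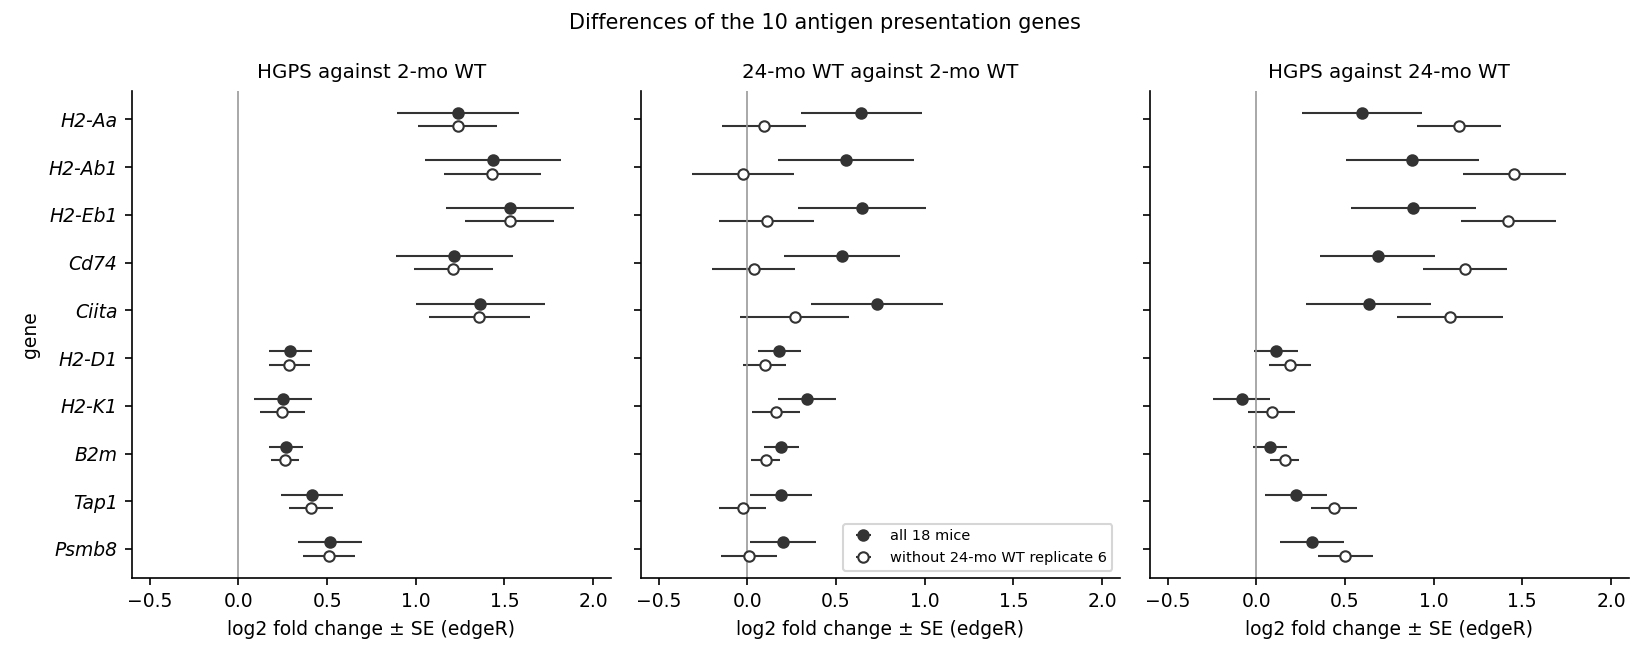
Log2 fold changes with their SE (horizontal axis) of the 10 genes (vertical axis) in the 3 comparisons, with all 18 mice (filled) and without replicate 6 of 24-mo WT (open). Leaving out this mouse hardly moves HGPS against 2-mo WT, brings the class II genes of 24-mo against 2-mo WT to between -0.02 and 0.27, and raises those of HGPS against 24-mo WT to between 1.09 and 1.46.

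HGPS mice were also set against 24-mo WT, a comparison that shares its mice with the other 2. With all mice, H2-Eb1 alone of the 10 passed an adjusted p under 0.05, with a log2 fold change of 0.89 (SE 0.35, adjusted p = 0.0453), beside 23.8% of all genes that rose and 23.6% that fell. It lost that call on the removal of HGPS replicate 1, 3 or 6, of 2-mo WT replicate 2, 3, 5 or 6, or of 24-mo WT replicate 1, 2, 3, 4 or 5 (adjusted p = 0.0505 to 0.164). H2-Ab1 had a log2 fold change of 0.88 (adjusted p = 0.0609) and passed without HGPS replicate 2 (0.046) or 4 (0.0451). The other class II genes stood at 0.68 for Cd74, 0.63 for Ciita and 0.60 for H2-Aa (adjusted p = 0.0902 to 0.155). H2-D1 (0.11), H2-K1 (-0.08), B2m (0.08), Tap1 (0.22) and Psmb8 (0.32) did not pass either, and the sign of H2-K1 turned without 24-mo WT replicate 6 (0.09) and in the sum over the family (0.01).

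At the study's thresholds edgeR and DESeq2 each called 0 of the 10 in HGPS against 24-mo WT, beside 6.02% of all genes called higher and 6.11% lower, and in 0 of the 10 were all HGPS mice above all 24-mo mice, beside 10.9% of all genes. An unadjusted p under 0.05 was reached upward by 3, beside 27.1% of all genes. Without 24-mo WT replicate 6, 7 of the 10 had an adjusted p under 0.05, beside 23.3% of all genes that rose, and 4 passed the study's thresholds, beside 5.72% called higher. These 4 were H2-Eb1 (log2 fold change 1.42, adjusted p = 0.000332), H2-Ab1 (1.46, 0.000519), Cd74 (1.18, 0.000574) and H2-Aa (1.14, 0.000738), and Ciita (1.09, 0.00579), Tap1 (0.44, 0.0104) and Psmb8 (0.50, 0.0129) passed the other threshold. The HGPS mice were then above all remaining 24-mo mice in 5 genes, H2-Aa, H2-Ab1, H2-Eb1, Cd74 and Psmb8, beside 12.1% of all genes, and still overlapped with them in Ciita. Without HGPS replicate 6 instead, the log2 fold changes were 0.35 for H2-Aa, 0.375 for Ciita, 0.44 for Cd74, and 0.58 for H2-Eb1 and H2-Ab1. None of these passed (adjusted p = 0.164 to 0.409). Without both mice the 5 class II genes stood at 0.845 (Ciita) to 1.17 (H2-Ab1), with adjusted p = 0.000295 to 0.0152. By mean level the order of the groups was HGPS, 24-mo WT and 2-mo WT in 9 of the 10 genes and 24-mo WT, HGPS and 2-mo WT in H2-K1. Without 24-mo WT replicate 6 the 24-mo mean fell to that of 2-mo WT or under it in H2-Ab1 (25.1 against 25.3 CPM) and Tap1 (13.2 against 13.4 CPM), and under that of HGPS in H2-K1 (187 against 199 CPM). HGPS and 2-mo WT differed in the 5 class II genes, B2m and Psmb8 in the fit with all mice, and no pair of neighbours did in that fit except HGPS and 24-mo WT in H2-Eb1.

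Pairs of genes of a class differed in how far their ratio varied from mouse to mouse. Cd74 had 1.53 to 2.14 times the CPM of H2-Aa in the 18 mice (median 1.86), although H2-Aa itself spread from 31.4 to 185 CPM. H2-Ab1 had 0.385 to 0.718, H2-Eb1 0.46 to 0.746 and Ciita 0.0284 to 0.0902 times the CPM of H2-Aa. H2-Eb1 was relatively higher in HGPS, where the ratio was 0.589 to 0.746 against 0.516 to 0.579 in 2-mo WT, ranges that did not overlap and were not tested. Among the class I genes H2-D1 had 1.27 to 1.98 and B2m 1.81 to 3.12 times the CPM of H2-K1. The lowest of both ratios was in 24-mo WT replicate 6, the mouse with the most H2-K1, and the ranges were not computed without it. These ratios compare a gene pair across mice and not the levels of the genes, which differ in length.

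With the group means taken out, the genes most like H2-Ab1 over the 18 mice were looked for among the 10708 genes that averaged 100 counts or more. The Pearson correlations were 0.985 for H2-Eb1, 0.984 for Cd74 and 0.963 for H2-Aa, followed by Abcg1 (0.892), Mpeg1 (0.887), Coro1a (0.871), H2-DMa (0.861) and Cotl1 (0.841). Abcg1 exports cholesterol, Mpeg1 encodes the perforin-2 of macrophages, Coro1a is an actin-binding protein of leukocytes and H2-DMa is a chain of the molecule that exchanges peptides on class II. Ciita stood at 0.825. The genes most like H2-K1 were H2-Q7 (0.935), H2-D1 (0.931), H2-Q4 (0.899), H2-DMb1 (0.895), Psmb9 (0.894), Abcg1 (0.88), Cotl1 (0.88) and Bst2 (0.857). Of these, H2-Q7, H2-D1 and H2-Q4 belong to the family of H2-K1, and how far reads were divided between them was not measured. These correlations are descriptions over mice that share their library size and their dissection with every gene of the same mouse. They include 24-mo WT replicate 6, the highest of its group in H2-Ab1 and H2-K1, and the 2 rankings were not computed without it. The correlation of H2-Ab1 with H2-K1 was 0.79 with all mice and 0.62 without that mouse.

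The wider pathway was read from lists that include the 10 genes and were written with earlier results of these data known. Of all tested genes, 22% rose and 21.2% fell in HGPS against 2-mo WT at an adjusted p under 0.05. At the study's thresholds 5.27% were called higher. These shares stand beside each list count of that comparison. In HGPS against 2-mo WT, 8 of 11 tested class II molecules and accessory proteins rose at an adjusted p under 0.05 and 0 fell (median log2 fold change 1.22), and 2 passed the study's thresholds. These were March1 (log2 fold change 1.68, adjusted p = 8.1e-05), a ubiquitin ligase that takes class II from the surface, and Ctss (1.36, 0.000432), the cathepsin that cuts the invariant chain. Ctss had 37.7 to 99.6 CPM in HGPS (median 65.1) and 17.8 to 31.7 CPM in 2-mo WT (median 27.8). H2-DMa (1.03, 0.00799) and the thiol reductase Ifi30 (0.44, 0.00592) rose too, while H2-DMb1 (0.46, 0.0954), H2-DMb2 (0.81, 0.0961) and H2-Ob (0.51, 0.333) did not pass.

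The class II regulators did not move as a group. Of 7 tested, Ciita rose, and Rfx5 and Rfxank, subunits of the RFX complex that binds the X box, fell by 0.53 (SE 0.09, adjusted p = 8.3e-05) and 0.58 (SE 0.13, adjusted p = 0.00164) on the log2 scale. Rfx5 had 10.6 to 16.6 CPM in HGPS (median 14.5) and 18.6 to 21.6 CPM in 2-mo WT (median 21.2). Rfxap (-0.05) and the NF-Y subunits Nfya (-0.16), Nfyb (-0.06) and Nfyc (0.07) did not pass.

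Among 14 tested class I heavy chains and B2m, 5 rose and 1 fell (median log2 fold change 0.26). H2-Q10 (1.84, adjusted p = 0.000231) and Cd1d1 (1.77, 0.000829), a lipid-presenting molecule, passed the study's thresholds upward, and Mr1 (-0.64, 9.4e-05), which presents vitamin metabolites, passed them downward, beside 4.23% of all genes called lower. H2-Q10 is one of the near-identical genes named above. The remaining risers were H2-T22 (0.52, 2.3e-05), H2-T24 (0.87, 0.0167) and B2m.

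Of 9 peptide loading genes, the chaperones Calr (0.53, adjusted p = 2.4e-05), Pdia3 (0.46, 1e-05) and Canx (0.29, 0.000852) rose, the peptidase Erap1 fell (-0.24, 0.0175), and 0 passed the study's thresholds. The chaperones also fold many other proteins. Of the 5 immunoproteasome and activator genes, Psmb8 and Psme2 (0.34, 0.000431) rose, and Psmb9 (0.37, 0.21), Psmb10 (0.20, 0.202) and Psme1 (-0.14, 0.114) did not pass. In the constitutive proteasome core, which every cell has, 12 of 14 subunits rose, all but Psmb4 and Psmb6, by 0.23 to 0.47 on the log2 scale, with a median of 0.26 over the 14.

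The interferon-gamma gene itself was at 0 counts in all 6 HGPS mice, all 6 2-mo WT mice and 4 of the 6 24-mo WT mice. Over the group, 3 counts are the upper limit that a count of 0 allows, so that a low level was not detectable at this depth. Of the 8 tested genes of interferon-gamma signalling and class I regulation, Ifngr2 (0.32, adjusted p = 0.00624), a receptor chain, and Jak1 (0.14, 0.015) rose, while Nlrc5 (0.46, 0.212), the class I counterpart of Ciita, and Irf1 (-0.24, 0.127) did not pass. The 2 of 8 that rose are near the share of all genes, 22%. Among 5 costimulation genes, Cd80 (2.62, 1.3e-05) and Cd86 (1.10, 0.000222), the ligands with which presenting cells engage CD28, rose past the study's thresholds and Icosl fell past them (-0.81, 4.2e-05). Cd80 had 2.84 to 4.37 CPM in HGPS and 0.162 to 0.918 CPM in 2-mo WT, and its mean was 9.83 counts per 2-mo WT mouse.

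**Figure D4:**
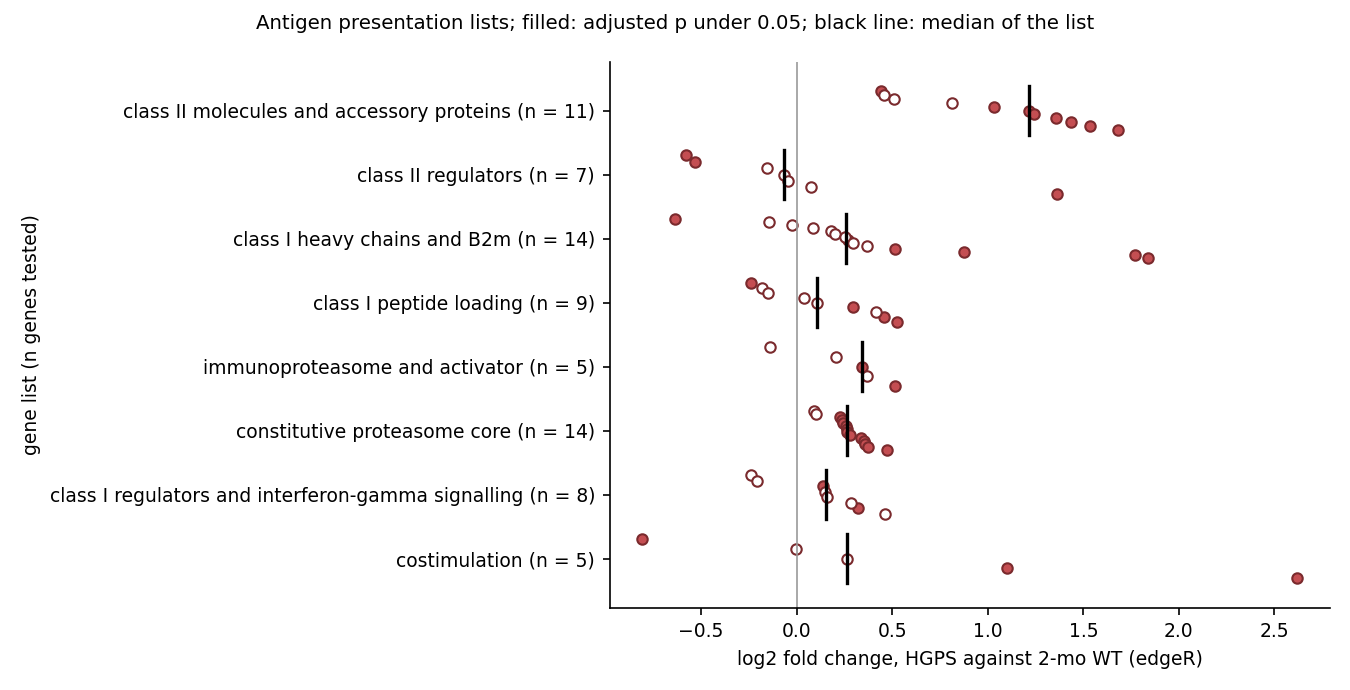
Log2 fold change of HGPS against 2-mo WT (horizontal axis) for each tested gene of 8 antigen presentation lists (vertical axis), filled where the adjusted p was under 0.05, with the median of each list as a black line. The class II list has the highest median, 1.22, and the list of class II regulators holds genes on both sides of 0.

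Between 24-mo and 2-mo WT, 0 of 11 class II molecules, 0 of 7 class II regulators, 0 of 5 immunoproteasome genes, 0 of 14 proteasome core subunits, 0 of 8 interferon-gamma genes and 0 of 5 costimulation genes passed an adjusted p under 0.05, in edgeR and in DESeq2. An unadjusted p under 0.05 was reached in edgeR by 1, 2, 0, 1, 1 and 1 of them. Of all genes, 6.29% rose and 5.38% fell at an adjusted p under 0.05 in edgeR. At an unadjusted p under 0.05, 13.2% of all genes rose, while the list counts at that threshold take both directions together. H2-Q10 (1.495, adjusted p = 0.00558) and H2-T10 (0.89, 0.0352) rose with age, and Pdia3 (-0.26, 0.00594) and Calr (-0.23, 0.0499) fell. Without 24-mo WT replicate 6 only H2-Q10 and Pdia3 of these 4 kept an adjusted p under 0.05.

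Against 24-mo WT, 23.8% of all genes were higher in HGPS and 23.6% lower at an adjusted p under 0.05. Of the 11 class II molecules, 4 were higher, namely H2-Eb1, March1 (1.20, adjusted p = 0.00107), Ctss (1.165, 0.00121) and Ifi30 (0.68, 0.000141). Without 24-mo WT replicate 6 it was 8 of 11, with H2-Aa, H2-Ab1, Cd74 and H2-DMa in addition. Of the regulators Nfyc was higher (0.27, 0.00751) and Rfx5 (-0.57, 2.5e-05), Rfxank (-0.47, 0.00624) and Nfya (-0.40, 0.00769) were lower. Of the class I heavy chains Cd1d1 (1.71, 0.00087) and H2-T22 (0.39, 0.000267) were higher, and Mr1 (-0.62, 9.35e-05), H2-T10 (-0.68, 0.0351) and H2-M3 (-0.40, 0.00253) lower. The call of H2-T10 was lost without that mouse. The loading chaperones Calr (0.76, 2.2e-07) and Pdia3 (0.72, 2.6e-08) passed the study's thresholds upward, and all 14 proteasome core subunits were higher, by 0.18 to 0.49 on the log2 scale (13 of 14 without that mouse). Psme2 (0.32, 0.000527) was higher and Psme1 (-0.21, 0.0171) lower. Ifngr2 (0.52, 9.35e-05) and Ifngr1 (0.30, 0.0175), the receptor chains for interferon-gamma, were higher and Irf1 (-0.42, 0.00849) lower. Cd80 (1.865, 0.000156), Cd86 (0.67, 0.00817) and Cd40 (0.80, 0.0238) were higher and Icosl (-0.93, 6e-06) lower.

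Markers of macrophages and those shared by all leukocytes moved with the class II genes in HGPS, and their part in the result was not tested. Of 11 macrophage markers, 10 rose in HGPS against 2-mo WT (beside 22% of all genes), among them Cd68 (log2 fold change 1.04, adjusted p = 3e-05) and Mrc1 (0.80, 7.5e-05), and Mertk (-0.02) did not. Their summed level was 761 to 1122 CPM in HGPS and 464 to 682 CPM in 2-mo WT, and the ratio of the group means was 1.66, beside 2.48 for the sum of H2-Aa, H2-Ab1, H2-Eb1 and Cd74 and 2.15 for the sum of 4 markers of all leukocytes. None of the macrophage markers was at 0 in all mice. H2-Ab1 per macrophage sum was 0.0459 to 0.118 in HGPS (median 0.0617) and 0.0355 to 0.0565 in 2-mo WT (median 0.0408), so the groups overlapped in this ratio. H2-Ab1 per leukocyte sum overlapped as well, at 0.434 to 0.849 in HGPS and 0.396 to 0.543 in 2-mo WT.

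Most dendritic cell markers were low. Of 10 on the list 5 were tested, and of these Itgax (2.49, adjusted p = 0.000898), Cd209a (1.68, 0.00164) and Clec10a (0.80, 0.00533) rose in HGPS, Zbtb46 fell (-0.30, 0.00806) and Siglech (-0.60, 0.131) did not pass. The defining markers Xcr1, Clec9a and Flt3 were too low to be tested. They had counts in all 6 HGPS mice, and Xcr1 was at 0 in 4, Clec9a in 2 and Flt3 in 1 of the 6 2-mo WT mice. The sum of the 10 was 34.7 to 51.1 CPM in HGPS, 25.6 to 37.4 CPM in 2-mo WT and 35.5 to 47.5 CPM in 24-mo WT. Zbtb46, which fell in HGPS, was a large part of it. By group means it had 16.7 of 39.8 CPM in HGPS, 20.5 of 32.2 in 2-mo WT and 25.7 of 41.05 in 24-mo WT. B cell markers summed to 1.04 to 3.47 CPM in HGPS and 1.44 to 5.59 CPM in 2-mo WT, and 0 of 4 tested passed an adjusted p under 0.05 in edgeR, with 0 at an unadjusted p under 0.05. T cell markers summed to 1.81 to 3.93 CPM in HGPS and 0.629 to 4.28 CPM in 2-mo WT. Of these, 0 of 3 tested passed an adjusted p under 0.05 in edgeR, and 1 rose at an unadjusted p under 0.05, beside 25.6% of all genes.

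Other tissues moved too. The summed levels of brown fat and white fat markers were 4.21 and 3.21 times as high in HGPS as in 2-mo WT by group means, those of smooth muscle 0.656 and of fibroblast 0.773 times, and those of endothelium 0.998 times. Their part in the differences of the 10 genes was not tested.

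The 24-mo mouse of high class II level stood apart in lymphocyte markers. Its 8 T cell markers summed to 18.6 CPM, where the other 5 24-mo mice had 2.11 to 3.76 CPM. Its NK and innate lymphoid markers summed to 7.4 CPM (1.11 to 3.73 in the others). Most of this sum was Il7r, at 5.86 CPM, while Ncr1 and Klrb1c had at most 0.109 and 0.287 CPM in any 24-mo mouse. Its markers of all leukocytes summed to 116 CPM (50.8 to 76.4 in the others). Its macrophage sum of 609 CPM and dendritic cell sum of 39.9 CPM lay within the range of the other 5, which were 471 to 891 CPM and 35.5 to 47.5 CPM. Its B cell sum of 9.55 CPM was above their 3.09 to 8.56 CPM. By group means, Zbtb46 made up 25.7 of the 41.05 CPM of the dendritic cell sum in 24-mo WT. That sum therefore says little about the other dendritic cell markers. Whether the cells of these markers account for the class II level of this mouse was not tested.

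Among mice of the same group, H2-Ab1 and H2-K1 were each set against 5 marker scores, the mean log2 CPM of the tested markers, and against each other. These 11 relations used the deviations of 18 mice from their group means, with permutation tests within groups and adjustment over the 11. The scores rest on 11 macrophage, 5 dendritic cell, 4 B cell, 3 T cell and 7 endothelium markers. The T cell score thus covers fewer genes than the sum of 8 T cell markers. H2-Ab1 and H2-K1 varied together, with r = 0.79 (p = 0.00231, adjusted p = 0.0254) and rho = 0.66 (p = 0.00648, adjusted p = 0.0298), and r was 0.58 without the 2 mice farthest from the median. H2-Ab1 varied with the dendritic cell score at r = 0.59 (p = 0.00893, adjusted p = 0.0327) and rho = 0.67 (p = 0.00529, adjusted p = 0.0298), with r = 0.66 without the 2 farthest mice. With the T cell score r was 0.72 (p = 0.00825, adjusted p = 0.0327) and rho 0.55 (p = 0.0234, adjusted p = 0.0515), and r fell to 0.51 without the 2 farthest mice and to 0.40 without 24-mo WT replicate 6.

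With the macrophage score H2-Ab1 had r = 0.48 (p = 0.104, adjusted p = 0.164) and rho = 0.66 (p = 0.00814, adjusted p = 0.0298), and r was 0.55 without the 2 farthest mice. The rank relation passed the threshold and the linear one did not. The B cell (r = 0.17, adjusted p = 0.539) and endothelium scores (r = 0.35, adjusted p = 0.304) did not pass. For H2-K1, 0 of the 5 scores passed, and r ranged from 0.18 for B cells to 0.64 for T cells (adjusted p = 0.0626 for the latter). That to T cells passed without 2-mo WT replicate 2, 3 or 6 (0.0225 to 0.0448 by permutation) and that to dendritic cells without 2-mo WT replicate 2 (0.0471). The 3 linear relations that passed depended on single mice. The adjusted p of that to H2-K1 rose above 0.05 without HGPS replicate 6 or 24-mo WT replicate 5 or 6 (0.063 to 0.0834 by permutation), and r was 0.62 without the latter. The relation to the dendritic cell score did so without HGPS replicate 2, 4 or 6, 2-mo WT replicate 1 or 4, or 24-mo WT replicate 4, 5 or 6 (0.0507 to 0.0911 by permutation). That to the T cell score did so without HGPS replicate 2, 4 or 6, 2-mo WT replicate 4, or 24-mo WT replicate 5 or 6 (0.0579 to 0.221 by permutation). With the median of the markers as the score, the relations to dendritic cells (adjusted p = 0.0935 by permutation) and T cells (0.0681) did not pass.

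**Figure D5:**
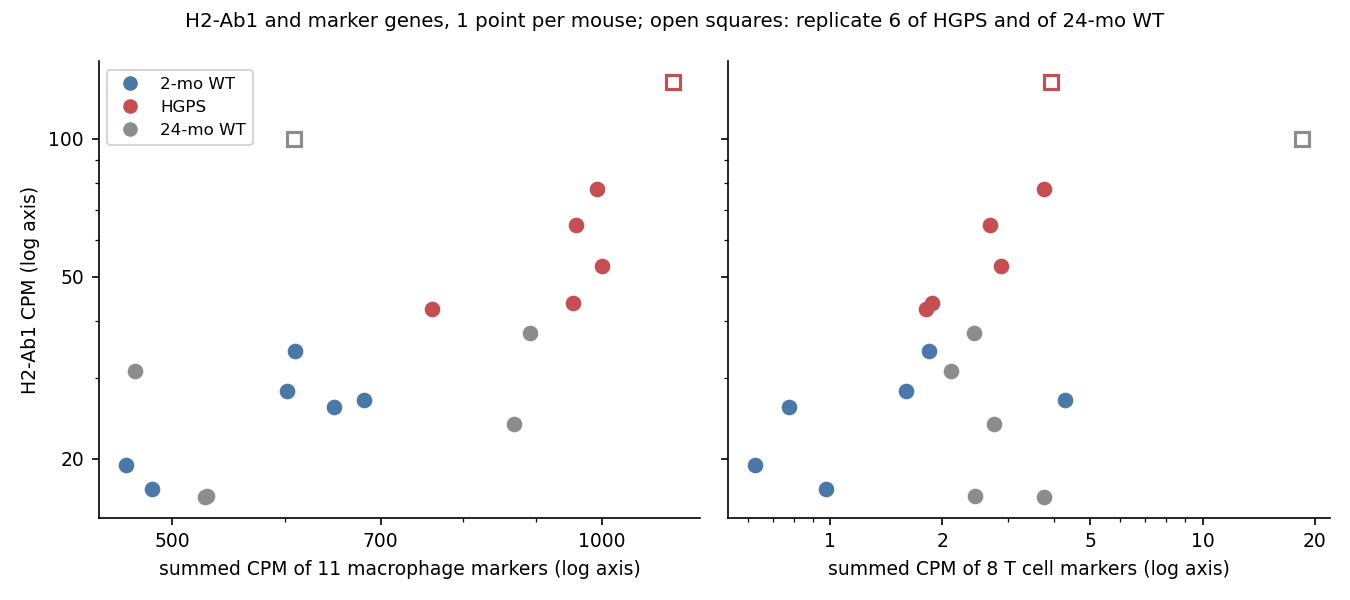
CPM of H2-Ab1 (vertical log axis) against the summed CPM of macrophage markers (left) and of T cell markers (right, log axes), 1 point per mouse, in 2-mo WT, HGPS and 24-mo WT. HGPS mice lie high on both axes of the left panel, whereas replicate 6 of 24-mo WT (grey open square) has a macrophage sum of 609 CPM, within the range of WT, and the highest T cell sum, 18.6 CPM.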

How the data were processed

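Aortic RNA of 18 mice was measured in 3 groups of 6, assigned from the labels. The authors quantified the reads with salmon against GENCODE M23 (GRCm38.p6) and summed them per gene with tximport. They deposited the resulting estimated counts as whole numbers for 54281 genes, not normalized, with 1 column per mouse. Whether these were rounded is not given in the sources used here, and the submitters' processing notes also name Bowtie 0.12.2. Division of reads between near-identical genes may affect H2-K1 and H2-D1.

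Gene names and positions came from GENCODE M21 (54107 identifiers matched), and promoters from RefSeq. A gene was tested where 6 or more mice had 10 or more counts of it. All 3 groups were fitted together with TMM factors in edgeR 4.0.16 (R 4.3.3, quasi-likelihood test), which left 15 residual degrees of freedom. Benjamini-Hochberg adjustment ran over the 15210 tested genes. Each SE was derived from the F statistic, whose square root is the ratio of log2 fold change to SE. Log2 CPM used a prior count of 2. The fit was tested on simulated counts. The totals were 12413229 to 30844775 counts per mouse, which leaves few counts for Ciita and the lymphocyte markers.

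The 10 genes, the pathway lists and the marker lists were chosen with earlier results of these data known. Named besides the 10 were pathway list genes called at the study's thresholds, or at an adjusted p under 0.05 where a list had fewer than 4 such genes, defining markers, and the 8 genes most like H2-Ab1 or H2-K1. Some list genes that missed the threshold are given beside them, and 1 list gene is not reported here. Alternatives were DESeq2 1.42.0, other scalings, filters, prior counts and thresholds, the summed family, 2 groups alone, a replicate block and each mouse left out.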

Additional observations from a re-analysis of the deposited data

Results flagged for a closer look

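Of 30 tests, 1 for each of the 10 genes in each group of 6 mice, 5 found a mouse far from the rest of its group by the ratio of its gap to the whole range (Dixon's ratio, 95% level). Chance does this in about 1 of 20 groups. Replicate 6 of 24-mo WT was the highest of its group with 177 CPM of H2-Aa (next mouse 63.5), 99.6 CPM of H2-Ab1 (next 37.7), 98.2 CPM of H2-Eb1 (next 35.2) and 295 CPM of Cd74 (next 114). These 4 genes varied together and do not count as 4 separate findings. Replicate 2 of 2-mo WT was the lowest of its group with 129 CPM of H2-K1, where the nearest mouse had 167.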

How the results depend on the processing

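At the study's thresholds, 0 of the 10 genes passed in HGPS against 2-mo WT. The count was 2 with DESeq2, 3 with a replicate block, 4 with the 2 groups alone, 7 at an adjusted p under 0.05, 4 without replicate 6 of both HGPS and 24-mo WT, and 0 to 5 with 1 mouse left out, and 0 under the remaining settings, glmTreat among them. Of all genes, 7.52% were called higher with DESeq2, 5.08% with the 2 groups alone and 5.19% without 24-mo WT replicate 6. With the replicate block, 1265 of the 15210 tested genes were called in either direction. At an adjusted p under 0.05, 22% rose. The share was not computed without both mice. In HGPS against 24-mo WT the count was 1 at an adjusted p under 0.05 (beside 23.8% of all genes that rose), 3 without both mice, and 0 to 4 with 1 mouse left out (beside 5.72% without 24-mo WT replicate 6). The count at an adjusted p under 0.05, which was 1, became 5 with the replicate block, 0 with the 2 groups alone, 7 without both mice, and 0 to 7 with 1 mouse left out. With the block, 6973 of the 15210 tested genes passed that threshold in either direction. Without 24-mo WT replicate 6, where the count was 7, 23.3% of all genes rose. The shares for the 2 groups alone and without both mice are not given. The setting without both mice, and the counts at an adjusted p under 0.05 under each alternative, were chosen after seeing the data. Genes without overlap numbered 0 to 1 in 24-mo against 2-mo WT and 0 to 5 in HGPS against 24-mo WT with 1 mouse left out. The 5 came without 24-mo WT replicate 6, beside 12.1% of all genes. The cause of these changes was not tested.

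Signs turned for H2-Ab1 (-0.023 without both mice, -0.023 to 0.714 with 1 left out) and Tap1 (-0.028, and -0.027 to 0.276) in 24-mo against 2-mo WT, and for H2-K1 in HGPS against 24-mo WT (0.01 in the family sum, -0.195 to 0.086 with 1 left out), each in values that did not pass. Over the 10 genes, 87 of 100 fold changes of HGPS against 2-mo WT kept their sign and their side of adjusted p = 0.05 under the other settings, as did 98 of 100 of 24-mo against 2-mo WT and 87 of 100 of HGPS against 24-mo WT.

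With the median of the markers, H2-Ab1 had r = 0.537 to dendritic cells and 0.6745 to T cells, and neither passed (adjusted p = 0.0935 and 0.0681 by permutation). With 1 mouse left out, r of H2-Ab1 was 0.547 to 0.664 for dendritic cells, -0.0317 to 0.3069 for B cells, 0.4042 to 0.7797 for T cells and 0.6243 to 0.8719 for H2-K1. That of H2-K1 was 0.3266 to 0.491 for dendritic cells, -0.0008 to 0.3626 for B cells and 0.3154 to 0.7245 for T cells.

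Mice of the same number shared only the number (correlations of deviations -0.16 to 0.17), so the block is no pairing. Over all genes it gave 1265, 219 and 1653 calls, where 1445, 304 and 1845 were made without it in the order of the comparisons, and DESeq2 gave 1923, 481 and 2267. Ciita, with about 35 counts in a young mouse, is the least deeply counted of the 10.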
